A study of Arabidopsis thaliana with 18 samples.

Results

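The 10 genes described here encode core components of abscisic acid signalling in Arabidopsis thaliana. They were chosen by gene identifier and make up 10 of the 32833 genes in each deposited table. ABI1 (AT4G26080), ABI2 (AT5G57050), HAB1 (AT1G72770) and HAI1 (AT5G59220, listed in the tables as SAG113) are clade A protein phosphatases 2C. ABI3 (AT3G24650), ABI4 (AT2G40220) and ABI5 (AT2G36270) are transcription factors of the B3, AP2 and bZIP families. ABF2 (AT1G45249), ABF3 (AT4G34000) and ABF4 (AT3G19290) are the bZIP factors that bind abscisic acid response elements. After a filter on low counts, 9 of the 10 could be tested, and ABI4 could not.

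RNA was sequenced from whole seedlings kept in darkness for 3 days at 21 °C on half-strength Murashige and Skoog medium. The GNLox line is a transgenic overexpressor of the B-GATA factor gene GNL, the gnc gnl line is the double mutant of GNC and GNL, and Col-0 is the wild type in whose background both lines were made. Each genotype was grown with 1% sucrose and without sucrose, which gave 6 groups of 3 libraries. The sources used here do not give the promoter that drives GNL in GNLox, the number of transgenic lines or the positions of the gnc and gnl mutations. The replicates are not described as separate cultures, so p-values measure the spread between these libraries only.

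Abscisic acid is the hormone of seed dormancy, drought and osmotic stress. Receptors of the PYR/PYL family that have bound it inhibit clade A phosphatases, which otherwise keep SnRK2 kinases switched off. The released kinases phosphorylate ABF and ABI5 proteins, which activate genes with abscisic acid response elements (ABREs) in their promoters. In seedlings just after germination, ABI3, ABI4 and ABI5 belong to the system that can hold growth back, and sugar sensing shares several of these components. Many genes of the pathway, phosphatases among them, are themselves induced by abscisic acid in Arabidopsis.

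The ABRE core ACGTG was searched on both strands in the 300 bases before each annotated gene start, in the RefSeq TAIR10.1 assembly. These windows are shown because the binding element of the ABF factors and ABI5 is known. A link between ACGTG and the differences below was not tested. ACGTG was present in 5 of the 10 members and in 25.6% of all 27419 promoters of that length. The windows of ABI5 (chr2:15207637-15207936 on the minus strand), ABF3 (chr4:16295034-16295333 on the plus strand), ABF4 (chr3:6686742-6687041 on the plus strand) and HAI1 (chr5:23896940-23897239 on the minus strand) are printed from 5′ to 3′, ending at the base before the gene start. Capitals mark ACGTG on either strand.
ABI5: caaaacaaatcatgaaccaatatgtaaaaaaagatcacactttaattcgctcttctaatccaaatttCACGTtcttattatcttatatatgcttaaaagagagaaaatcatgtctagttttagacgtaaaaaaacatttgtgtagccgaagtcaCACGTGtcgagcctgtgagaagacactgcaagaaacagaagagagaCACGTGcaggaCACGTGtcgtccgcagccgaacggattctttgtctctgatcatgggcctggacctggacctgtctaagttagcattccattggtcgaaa
ABF3: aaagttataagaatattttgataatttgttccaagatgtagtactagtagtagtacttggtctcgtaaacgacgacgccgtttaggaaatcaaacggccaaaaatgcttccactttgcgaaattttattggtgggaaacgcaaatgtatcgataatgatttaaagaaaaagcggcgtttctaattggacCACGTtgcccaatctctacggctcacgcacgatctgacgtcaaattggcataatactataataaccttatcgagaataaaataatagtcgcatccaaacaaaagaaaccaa
ABF4: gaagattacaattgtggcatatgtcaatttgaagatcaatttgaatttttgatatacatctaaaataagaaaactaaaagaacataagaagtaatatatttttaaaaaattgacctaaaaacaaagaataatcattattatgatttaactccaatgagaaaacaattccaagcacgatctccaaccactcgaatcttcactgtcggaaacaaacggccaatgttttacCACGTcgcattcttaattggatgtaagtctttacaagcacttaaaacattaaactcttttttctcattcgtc
HAI1: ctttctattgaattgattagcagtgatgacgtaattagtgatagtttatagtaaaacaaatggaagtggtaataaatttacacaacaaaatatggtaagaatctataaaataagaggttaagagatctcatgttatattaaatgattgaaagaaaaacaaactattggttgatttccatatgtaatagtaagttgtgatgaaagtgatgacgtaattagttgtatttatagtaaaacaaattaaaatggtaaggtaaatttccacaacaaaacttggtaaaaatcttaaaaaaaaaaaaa

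The ABI5 window held the core at 4 places, and it was the only member with more than 1, against 5.86% of all promoters with 2 or more. At 3 of these places, 146 to 141, 100 to 95 and 89 to 84 bases before the start, the core lay in the palindrome CACGTG, the G-box, where the matches of both strands overlap. At least 1 CACGTG was present in 7.08% of all promoters and 2 or more in 0.999%. The fourth place in ABI5 was 233 to 229 bases before the start. ABF3 and ABF4 each had 1 match, 111 to 107 and 72 to 68 bases before the start. HAB1 had 1 match 19 to 15 bases before its start and ABI1 had 1 match 286 to 282 bases before its start. No ACGTG was found in the windows of ABI2, HAI1, ABI3, ABI4 or ABF2. A match is a run of letters and not a measured binding site.

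**Figure D1:**
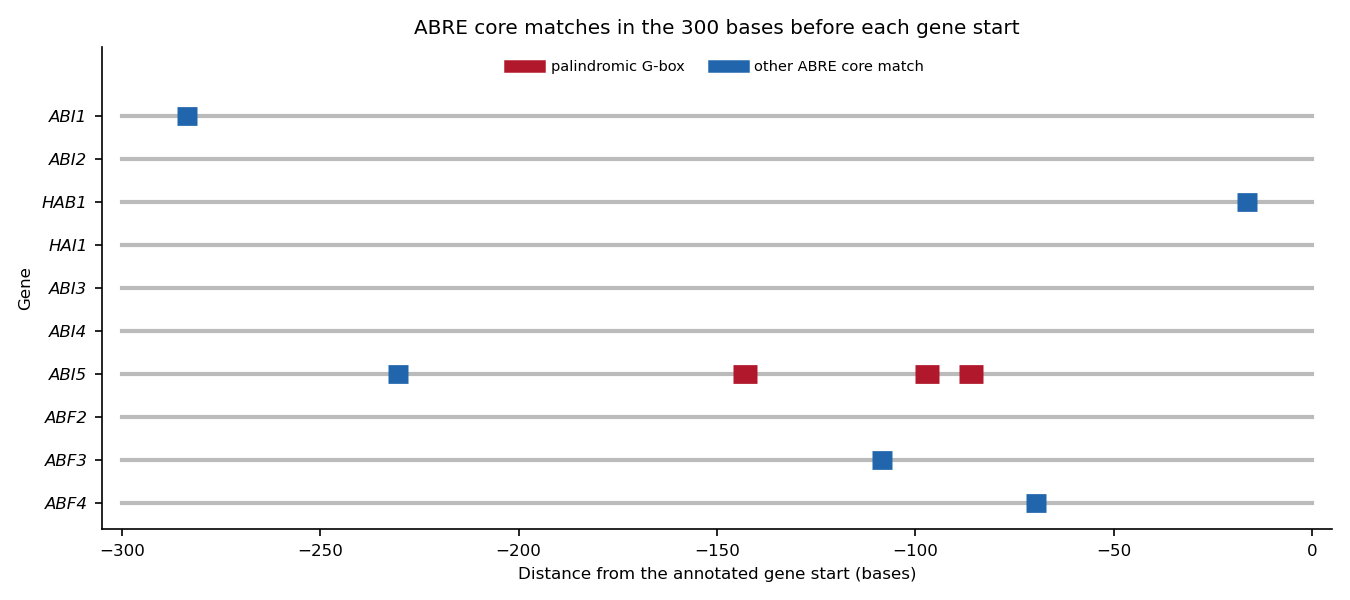
Map of ABRE core matches in the 300 bases before each gene start; the x axis is the distance from the start in bases and each row is 1 gene. ABI5 carries 3 G-boxes and 1 further core, and 4 other members carry 1 core each.

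The libraries held 27362791 to 41942516 reads on genes. Reads on ribosomal RNA genes made up 1.73% to 46.7% of these totals and plastid genes 0.915% to 23.3%, with both maxima in GNLox replicate 3 without sucrose. These shares moved with the medium. In GNLox the ribosomal RNA share was 1.73% to 5.71% with sucrose and 8.77% to 46.7% without, in gnc gnl 6.84% to 15.2% and 17.0% to 35.4%, and in Col-0, where the media overlapped, 7.84% to 27.8% and 12.5% to 20.5%. The plastid share was 0.915% to 1.55% with sucrose and 3.44% to 23.3% without in GNLox, 2.7% to 5.26% and 5.79% to 12.4% in gnc gnl, and 2.76% to 6.30% and 6.37% to 8.69% in Col-0. Levels are given as CPM, read counts divided by the library size after trimmed-mean (TMM) scaling, so a change is relative to most other genes and not absolute. GNL stood at 2839 to 5283 CPM in GNLox and 0.971 to 2.38 CPM in Col-0 with sucrose, and at 5134 to 6287 CPM in GNLox and 5.85 to 21.8 CPM in Col-0 without sucrose. GNC stood at 5.26 to 6.40 CPM in gnc gnl and 12.1 to 18.6 CPM in Col-0 with sucrose, and at 8.50 to 9.26 CPM in gnc gnl and 17.3 to 35.4 CPM in Col-0 without, so its ranges lay apart. GNL reads in gnc gnl were not below Col-0, at 3.16 to 5.32 CPM with sucrose, above the Col-0 range, and 7.12 to 11.1 CPM without, within it. The etiolated seedling gene PORA was present in every library, at 68.8 to 370.2 CPM.

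The levels of the 10 genes span several orders of magnitude. On the length-scaled TPM values made by the authors, ABF3 was the highest in Col-0 without sucrose, at 174.5 ± 12.1 TPM (SD, n = 3), followed by ABI1 at 124.5 ± 7.44 TPM. ABF4 had 75.5 ± 8.01 TPM and HAB1 62.2 ± 5.95 TPM. HAI1 had 42.2 ± 4.57 TPM, ABF2 28.5 ± 2.63 TPM and ABI2 27.4 ± 2.47 TPM. The seed-associated regulators lay lower, with 11.1 ± 2.23 TPM for ABI5, 1.94 ± 1.04 TPM for ABI3 and 0.0587 ± 0.102 TPM for ABI4. Of the neighbours in that order, ABF2 and ABI2 overlapped, at 25.5 to 30.5 TPM and 25.7 to 30.2 TPM, and the other pairs did not.

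**Figure D2:**
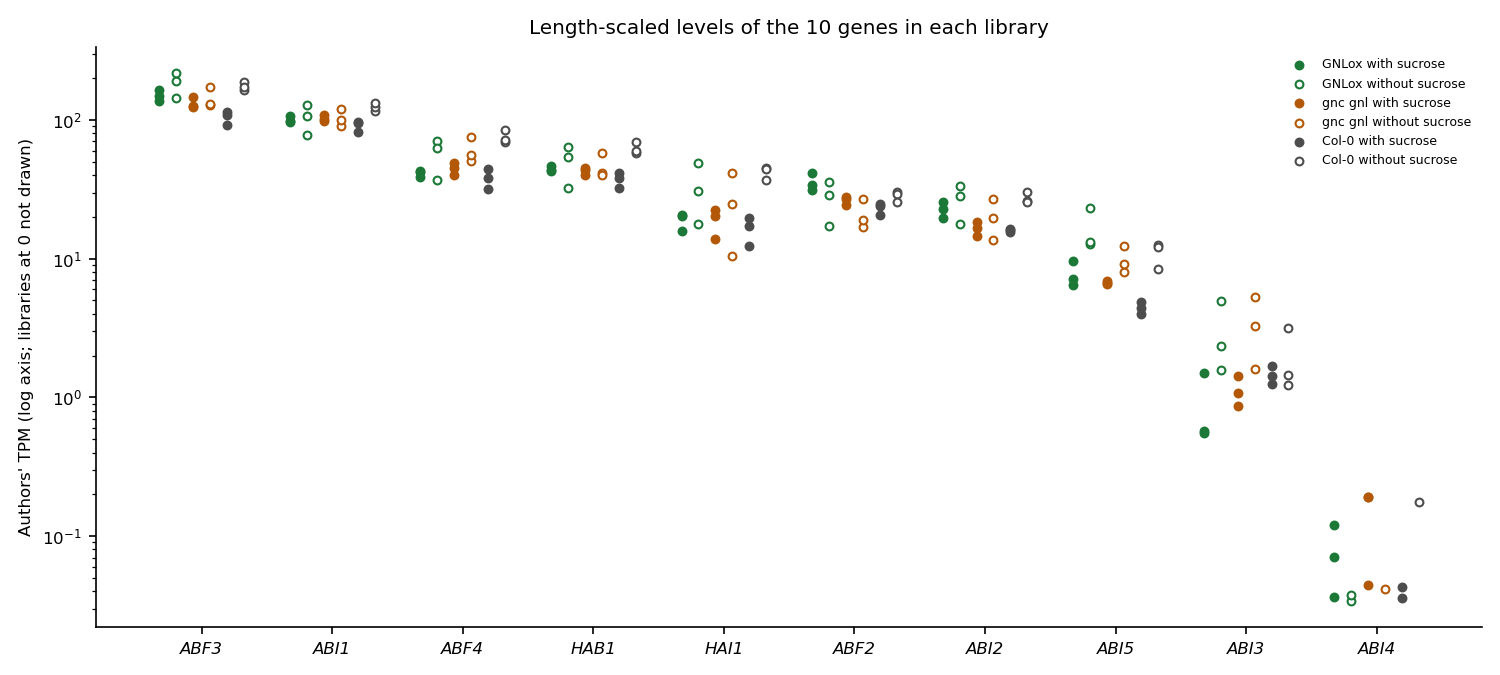
Authors' TPM of the 10 genes in each of the 18 libraries on a log axis, with genes ordered by their mean in Col-0 without sucrose; filled circles are sucrose libraries and open circles libraries without sucrose. ABF3 stands highest in that order, at 174.5 TPM, and ABI4 lowest; libraries at 0 are not drawn.

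The question of the media was whether sucrose changed these genes in dark-grown seedlings. Most of them were lower with sucrose in every genotype. With sucrose, 8 of the 9 tested members were called lower in GNLox, where 26.1% of all tested genes were called lower. In gnc gnl 7 members were lower, against a background of 14.3%, and in Col-0 7 members were lower, against a background of 23.8%. The members were chosen with earlier results of these data known, so these shares are a description and not a test of the set. No member was called higher in any genotype, where 28.7% of all tested genes in GNLox, 17.9% in gnc gnl and 26.0% in Col-0 were. A call is an edgeR quasi-likelihood adjusted p under 0.05 over all 21903 genes tested. The median log2 difference of the members was -0.77 in GNLox, -0.63 in gnc gnl and -0.81 in Col-0, and that of all tested genes was 0.03, 0.00192 and 0. The same 6 members, ABI1, ABI2, HAB1, ABI5, ABF3 and ABF4, were called lower in all 3 genotypes, as were 11.2% of all tested genes. For 5 of them, all but ABI2, each of the 9 sucrose libraries lay below each of the 9 libraries without sucrose, as for 8.10% of all tested genes. Within a genotype, the sucrose libraries lay below all others for 8 tested members in GNLox, 6 in gnc gnl and 8 in Col-0. The same held for 25.7%, 24.0% and 28.7% of all tested genes. These directions are relative to the median gene. With library totals and no composition factor, the median of all genes moved by 0.51 in GNLox, 0.39 in gnc gnl and 0.10 in Col-0. The members called lower were then 2, 1 and 6 in number, where 942, 142 and 1136 of the 21903 tested genes were called lower. ABI1 in gnc gnl then stood at 0.018, and ABF2 stood at 0.42 in GNLox and 0.35 in gnc gnl. The shares of ribosomal RNA and plastid reads given above also differed between the media. With ribosomal RNA genes left out, or with nuclear genes alone, 8, 7 and 7 members were called lower in GNLox, gnc gnl and Col-0. The seedlings were sequenced whole, so fewer cells of a type and less RNA per cell cannot be told apart.

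**Figure D3:**
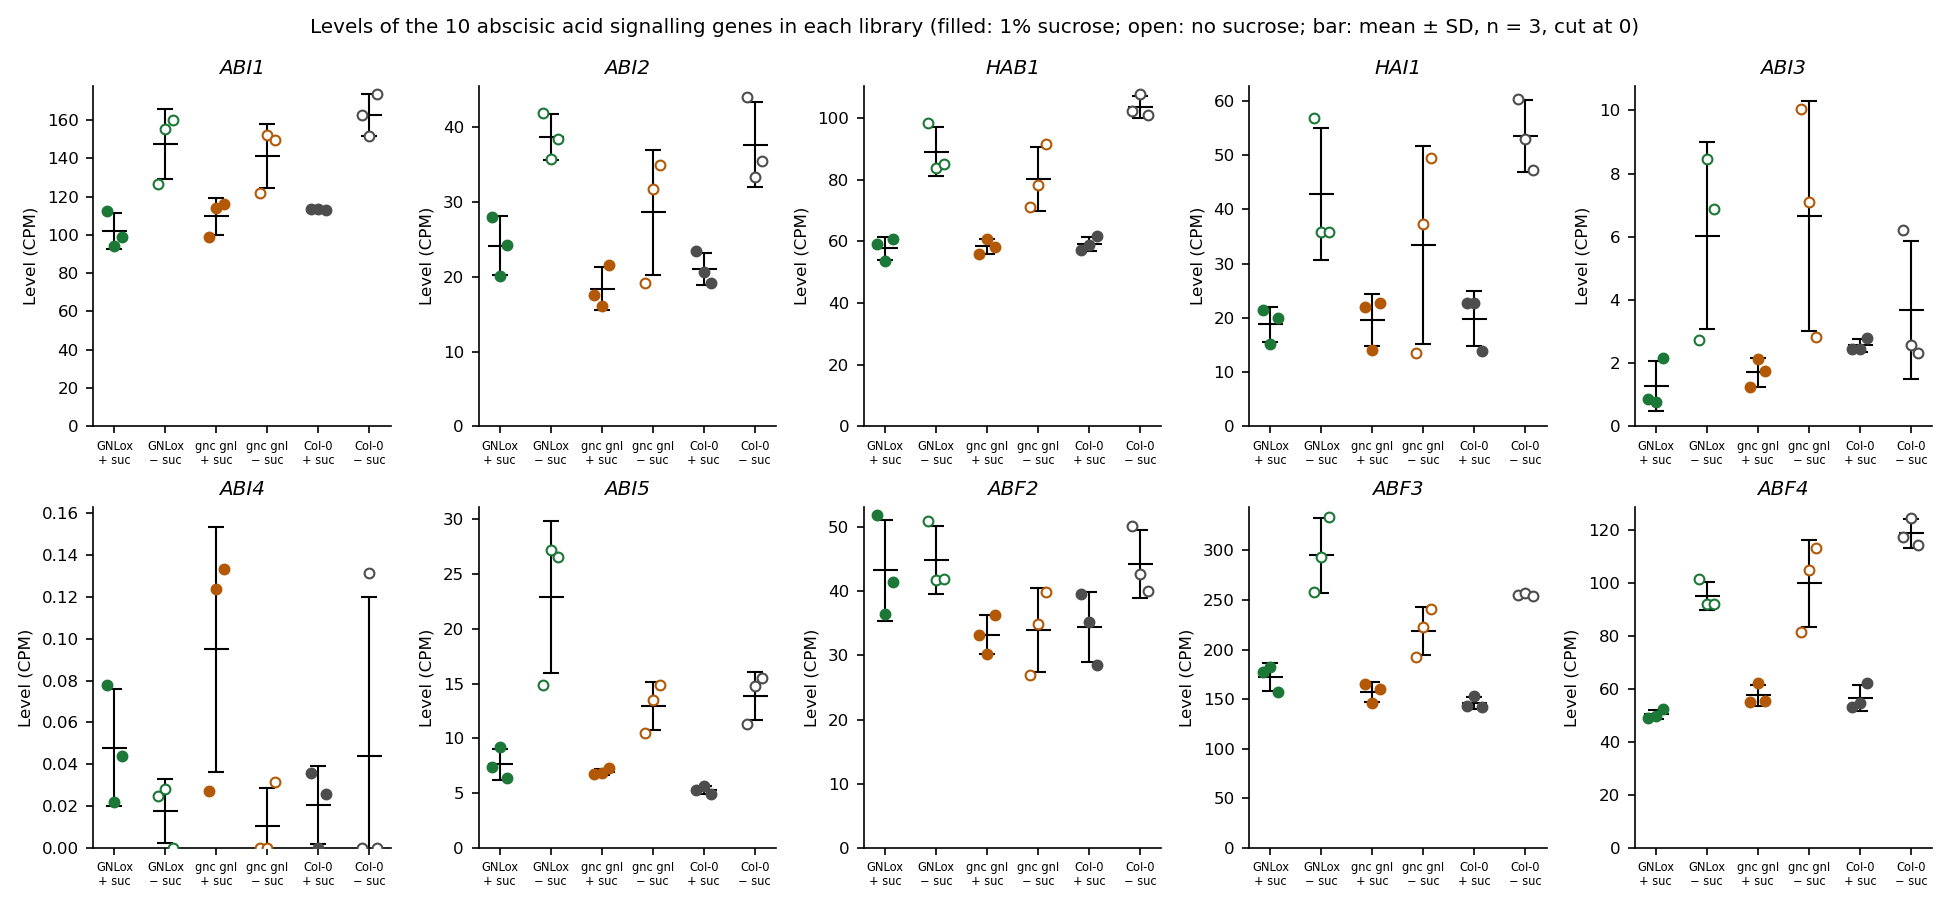
TMM-scaled CPM of each of the 10 genes in each library, in separate panels with their own y axis from 0; points are libraries, crossbars group means and whiskers SD (n = 3, cut at 0). For ABI1, HAB1, ABI5, ABF3 and ABF4 all filled points (sucrose) lie below all open points (no sucrose).

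The phosphatases act as brakes on the pathway. HAB1, a broadly active member, had 59.1, 53.6 and 60.8 CPM with sucrose and 98.3, 83.9 and 85.1 CPM without in GNLox. It had 56.0, 60.9 and 58.2 CPM with sucrose and 71.3, 78.2 and 91.5 CPM without in gnc gnl. It had 57.4, 58.7 and 61.7 CPM with sucrose and 102.3, 107.7 and 101.0 CPM without in Col-0. The 9 sucrose libraries lay within a narrow band, and the spread between genotypes was in the libraries without sucrose. The log2 differences were -0.62 ± 0.09 (SE) in GNLox, -0.46 ± 0.09 in gnc gnl and -0.81 ± 0.09 in Col-0 (edgeR adjusted p = 4.71e-05, 0.00169 and 1.11e-05). ABI1, whose dominant mutant gave abscisic acid insensitivity its name, was the highest of the 4 per length. Its lowest, median and highest levels were 94.3, 112.9 and 116.2 CPM over the 9 sucrose libraries and 121.8, 152.3 and 173.6 CPM over the 9 others. Its decrease was the smallest of the 4 phosphatase members, with log2 differences of -0.53 ± 0.11 in GNLox, -0.37 ± 0.11 in gnc gnl and -0.52 ± 0.11 in Col-0 (edgeR adjusted p = 0.000822, 0.0190 and 0.00119). The call in gnc gnl was lost without replicate 2 or 3 of its libraries without sucrose (adjusted p = 0.0812 and 0.0729), and without its sucrose replicate 1 (0.0826).

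ABI2, the close relative of ABI1, had 28.1, 20.2 and 24.3 CPM with sucrose and 41.9, 35.8 and 38.4 CPM without in GNLox. It had 17.6, 16.1 and 21.6 CPM with sucrose and 19.2, 31.7 and 35.0 CPM without in gnc gnl. It had 23.4, 20.6 and 19.2 CPM with sucrose and 44.1, 33.4 and 35.5 CPM without in Col-0. The media did not overlap in GNLox or Col-0, whereas in gnc gnl replicate 1 without sucrose fell among the sucrose libraries. The log2 differences were -0.68 ± 0.19, -0.63 ± 0.19 and -0.84 ± 0.19 in GNLox, gnc gnl and Col-0 (edgeR adjusted p = 0.00741, 0.0212 and 0.00232). In gnc gnl the call was lost without replicate 2 or 3 without sucrose (adjusted p = 0.0813 and 0.113), and without sucrose replicate 1 or 2 (0.0656 and 0.0717).

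HAI1, a phosphatase that abscisic acid induces strongly, had the largest decreases of the 4 phosphatase members in GNLox and Col-0. It had 21.4, 15.1 and 19.9 CPM with sucrose and 56.9, 35.9 and 35.8 CPM without in GNLox. It had 21.96, 14.1 and 22.7 CPM with sucrose and 13.6, 37.2 and 49.4 CPM without in gnc gnl. It had 22.8, 22.8 and 13.9 CPM with sucrose and 60.4, 52.8 and 47.2 CPM without in Col-0. In GNLox and Col-0 every sucrose library was lower than every library without sucrose, and in gnc gnl replicate 1 without sucrose was the lowest of the 6. The log2 differences were -1.19 ± 0.36 in GNLox and -1.43 ± 0.36 in Col-0 (edgeR adjusted p = 0.0107 and 0.00411). The difference of -0.77 ± 0.36 in gnc gnl missed the threshold (adjusted p = 0.110), and it rested on single libraries without sucrose. Without replicate 1 it was -1.15 (adjusted p = 0.00563) and without replicate 3 it was -0.37 (adjusted p = 0.482). Leaving out GNLox replicate 1 without sucrose gave an adjusted p of 0.0507 in GNLox.

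ABI5, the bZIP factor that restrains growth after germination, showed the strongest decrease among members called in all 3 genotypes. It had 7.36, 9.19 and 6.40 CPM with sucrose and 14.9, 27.2 and 26.6 CPM without in GNLox. It had 6.77, 6.81 and 7.29 CPM with sucrose and 10.5, 13.5 and 14.9 CPM without in gnc gnl. It had 5.32, 5.69 and 4.92 CPM with sucrose and 11.4, 14.8 and 15.5 CPM without in Col-0. No sucrose library reached the lowest library without sucrose, and GNLox replicates 2 and 3 without sucrose were the highest of all 18. The log2 differences were -1.58 ± 0.21 in GNLox, -0.90 ± 0.21 in gnc gnl and -1.39 ± 0.21 in Col-0 (edgeR adjusted p = 2.39e-05, 0.00502 and 0.000126). These are levels 2.98-, 1.86- and 2.61-fold lower with sucrose.

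ABI3, the B3 factor that directs seed maturation, was measured near the lower end of the range, with 2066 reads over the 18 libraries. It had 0.858, 0.772 and 2.18 CPM with sucrose and 2.73, 8.47 and 6.89 CPM without in GNLox. It had 1.23, 2.14 and 1.76 CPM with sucrose and 10.04, 7.09 and 2.81 CPM without in gnc gnl. It had 2.45, 2.44 and 2.79 CPM with sucrose and 6.21, 2.57 and 2.31 CPM without in Col-0. The media were apart in GNLox and gnc gnl and overlapped in Col-0, where a single library without sucrose was high. The log2 differences were -2.23 ± 0.55 in GNLox and -1.96 ± 0.54 in gnc gnl (edgeR adjusted p = 0.00315 and 0.0129), against -0.52 ± 0.53 in Col-0 (adjusted p = 0.434). Without the high library, replicate 1 without sucrose, the Col-0 difference was 0.074 (adjusted p = 0.924). The gnc gnl call was lost without replicate 1 without sucrose (-1.52, adjusted p = 0.0546) or sucrose replicate 1 (-1.78, adjusted p = 0.0532). Among 10 seed maturation marker genes, the summed level was 0.703 to 4.56 CPM with sucrose and 1.71 to 10.3 CPM without in GNLox, and 2.15 to 7.99 and 1.89 to 2.104 CPM in Col-0. In gnc gnl it was 1.45 to 34.7 CPM with sucrose and 3.64 to 7.97 CPM without. Of the 10 markers, 1 was called lower with sucrose in GNLox, none in gnc gnl and 1 in Col-0. The shares of all tested genes called lower were 26.1%, 14.3% and 23.8%. The part of the markers in the ABI3 result was not tested.

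ABI4, an AP2 factor of sugar and abscisic acid responses, was barely detected. It collected 26 reads in all, in 12 of the 18 libraries. The counts were 3, 1 and 2 reads with sucrose and 1, 1 and 0 without in GNLox, and 1, 4 and 6 with sucrose and 0, 0 and 1 without in gnc gnl. In Col-0 they were 1, 0 and 1 with sucrose and 0, 4 and 0 without. These counts are too few for a test, and no direction was read from them.

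The ABF factors differed among themselves. ABF4 fell the most of the 3 in each genotype, and had 49.1, 49.9 and 52.3 CPM with sucrose and 101.3, 92.0 and 92.1 CPM without in GNLox. It had 55.0, 62.3 and 55.5 CPM with sucrose and 81.5, 105.0 and 113.0 CPM without in gnc gnl. It had 53.0, 54.8 and 62.2 CPM with sucrose and 117.1, 124.6 and 114.1 CPM without in Col-0. Every sucrose library was at or under 62.3 CPM and every other library at or over 81.5 CPM, and the log2 differences were -0.92 ± 0.10 in GNLox, -0.79 ± 0.10 in gnc gnl and -1.07 ± 0.10 in Col-0 (edgeR adjusted p = 7.25e-06, 0.000124 and 3.74e-06). An antisense long noncoding gene, AT3G03815, overlaps ABF4 over 2516 bases and took 473 reads against 48131 on ABF4, and without a stated strand the reads of both cannot be told apart.

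ABF3, the most abundant member per length, had 177.7, 182.9 and 156.9 CPM with sucrose and 258.0, 293.3 and 333.6 CPM without in GNLox. It had 165.3, 145.8 and 159.9 CPM with sucrose and 192.8, 222.5 and 240.6 CPM without in gnc gnl, and 143.0, 152.8 and 142.3 CPM with sucrose and 255.1, 257.3 and 253.9 CPM without in Col-0. The media did not overlap in any genotype, and the 3 Col-0 libraries without sucrose were almost equal. The log2 differences were -0.77 ± 0.10, -0.48 ± 0.10 and -0.81 ± 0.10 in GNLox, gnc gnl and Col-0 (edgeR adjusted p = 2.45e-05, 0.00301 and 3.08e-05). ABF2, also called AREB1, was the tested member not called in any genotype. It had 51.8, 36.5 and 41.4 CPM with sucrose and 50.9, 41.8 and 41.9 CPM without in GNLox. It had 33.2, 30.3 and 36.3 CPM with sucrose and 27.0, 34.9 and 39.9 CPM without in gnc gnl. Its media overlapped in both lines, and the 95% intervals of the log2 difference were -0.40 to 0.29 in GNLox and -0.38 to 0.32 in gnc gnl. In Col-0 it had 39.5, 35.2 and 28.6 CPM with sucrose and 50.2, 42.7 and 40.0 CPM without, just apart, with a difference of -0.36 ± 0.16 (edgeR adjusted p = 0.0748). Without Col-0 sucrose replicate 1 that difference was -0.47 (adjusted p = 0.0485), and without sucrose replicate 3 it was -0.25 (adjusted p = 0.261).

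**Figure D4:**
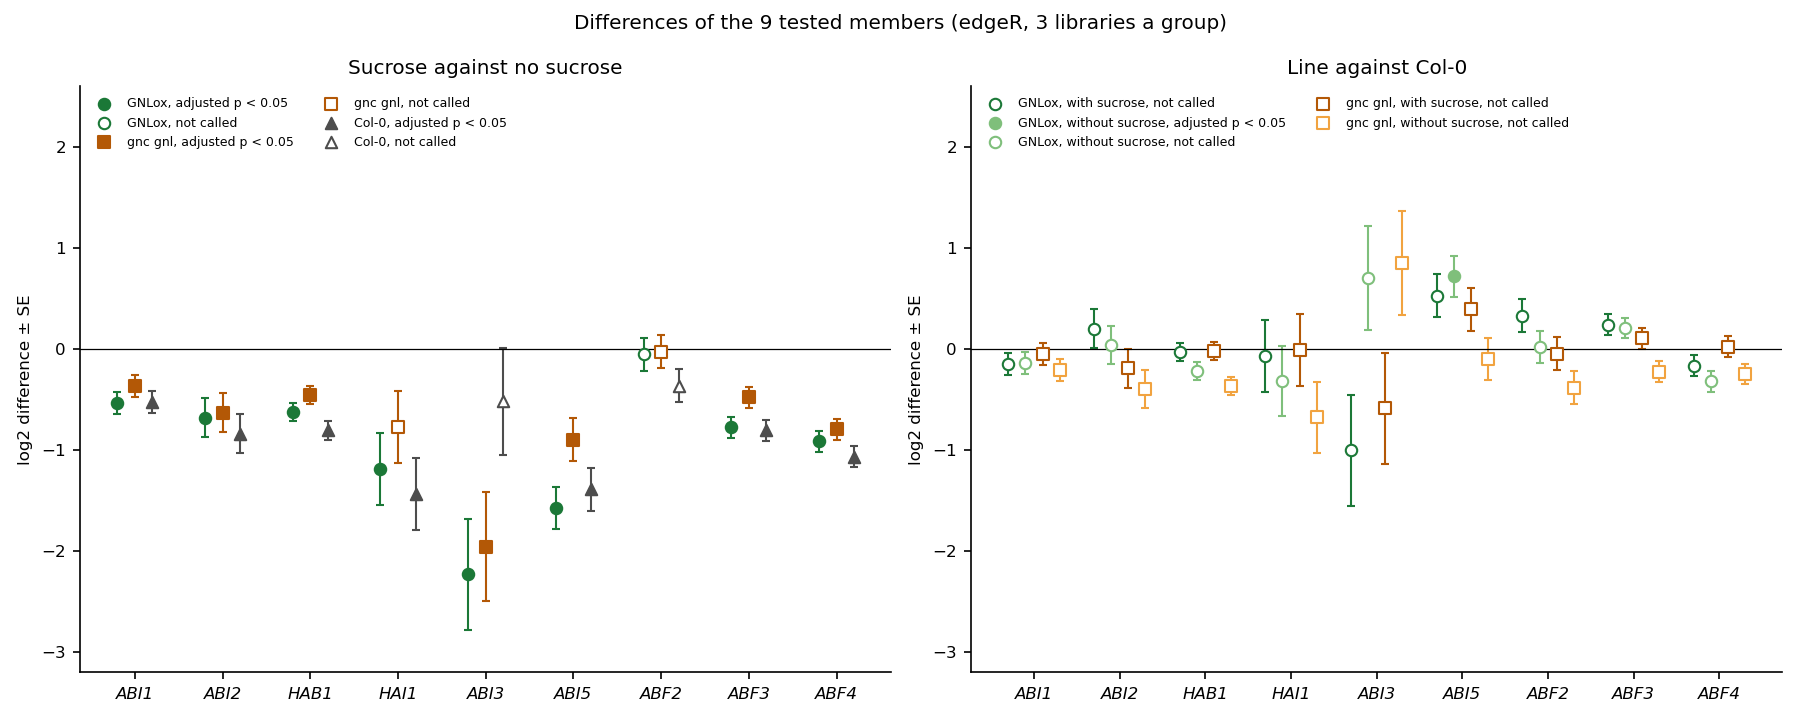
Log2 differences ± SE (edgeR, 3 libraries a group) of the 9 tested members, with sucrose against no sucrose at left and each line against Col-0 at right; filled symbols have an adjusted p under 0.05. The sucrose differences lie at or below 0, from -2.23 for ABI3 in GNLox to -0.03 for ABF2 in gnc gnl, while in the right panel only ABI5 in GNLox without sucrose is filled; with library totals, ABI1 in gnc gnl and ABF2 in both lines lie above 0.

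Whether the sucrose response of a line differed from that of Col-0 was tested by the difference of the responses. No member was called for either line, against 1.12% of all tested genes for GNLox and 0 for gnc gnl. At an unadjusted p under 0.05 there was 1 member for GNLox, against 14.9% of all tested genes, and there were 2 for gnc gnl, against 7.56%, and DESeq2 called none. For gnc gnl these were HAB1, at a log2 difference of responses of 0.35 (95% interval 0.08 to 0.62, edgeR adjusted p = 0.568), and ABF3, at 0.33 (0.02 to 0.64, adjusted p = 0.636). For GNLox it was ABI3, at -1.71 (-3.32 to -0.10, adjusted p = 0.303). Intervals for the well-measured genes leave room for differences of a fraction of a log2 unit, such as -0.28 to 0.34 for ABF3 and -0.34 to 0.32 for ABI1 in GNLox. The call of ABI3 in both lines and not in Col-0 is therefore not a shown difference between genotypes.

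The lines were next set against Col-0 within each medium, which bears on whether the GATA factors GNC and GNL alter these genes. Both lines were set against the same Col-0 libraries, and few differences were called. In GNLox without sucrose, 1 of 9 members was called, ABI5, where 13.5% of all tested genes were called and 6.52% were called higher. ABI5 had 14.9, 27.2 and 26.6 CPM in GNLox, against 11.4, 14.8 and 15.5 CPM in Col-0, so GNLox replicate 1 lay within the Col-0 range and the other two above it. The log2 difference was 0.72 ± 0.20 (edgeR adjusted p = 0.0298). The call was lost without Col-0 replicate 1 or 2 (adjusted p = 0.106 and 0.0684) and without GNLox replicate 2 or 3 (0.129 and 0.0953), and also in a fit of these 2 groups alone (0.139). In the same GNLox replicates 1, 2 and 3, the seed markers summed to 1.71, 10.3 and 10.3 CPM and ABI3 stood at 2.73, 8.47 and 6.89 CPM, so the libraries high in ABI5 were also high in these. Their part in the ABI5 difference was not tested. DESeq2 also called ABF4 lower in GNLox, at 101.3, 92.0 and 92.1 CPM against 117.1, 124.6 and 114.1 CPM in Col-0. DESeq2 called 3629 of the 21903 tested genes in this comparison. The ABF4 groups did not overlap, as for 3 of the 9 tested members. In gnc gnl against Col-0 without sucrose, groups of the same size did not overlap for 24.6% of all tested genes. In edgeR the ABF4 difference in GNLox of -0.32 ± 0.10 had an adjusted p of 0.0530, and of 0.0146 to 0.166 when single libraries were left out.

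In GNLox with sucrose no member was called, against 20.4% of all tested genes, and 2 had an unadjusted edgeR p under 0.05, as did 35.0% of all tested genes, with none called by DESeq2. These were ABI5, at 7.36, 9.19 and 6.40 CPM in GNLox against 5.32, 5.69 and 4.92 CPM in Col-0 (0.53 ± 0.21, edgeR adjusted p = 0.0905), and ABF3, at 0.24 ± 0.10 (adjusted p = 0.108). Of the 9 tested members, 5 did not overlap between these groups, a count that is a description only. In gnc gnl against Col-0 with sucrose, groups of the same size did not overlap for 32.3% of all tested genes. The directions in GNLox were mixed, with ABI5 and ABF3 above Col-0 in 3 of 3 libraries and ABI1, ABI3 and ABF4 below it in 3 of 3. The ABI5 difference was called with library totals, at 0.82 (edgeR adjusted p = 0.0324), and when GNLox replicate 1 without sucrose was left out of the joint fit, at 0.53 (0.0265). Without GNLox sucrose replicate 2 it was 0.38 (adjusted p = 0.254). In gnc gnl no member was called in either medium, against 0.160% of all tested genes with sucrose and 1.29% without. At an unadjusted p under 0.05 there were 0 members with sucrose, against 16.6% of all tested genes, and 4 without, all lower in gnc gnl, against 18.2%. The nearest to the threshold was HAB1 without sucrose, with 71.3, 78.2 and 91.5 CPM in gnc gnl against 102.3, 107.7 and 101.0 CPM in Col-0. Its groups did not overlap, as for 4 of the 9 tested members and 24.6% of all tested genes, 12.1% of them lower in gnc gnl without overlap. The difference of -0.37 ± 0.09 had an edgeR adjusted p of 0.0558, which was 0.00778 with DESeq2. Without gnc gnl replicate 3 it was -0.47 (adjusted p = 0.0131), and without gnc gnl replicate 1 it was -0.29 (adjusted p = 0.302).

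Further steps of the pathway were examined through lists of its other genes. With sucrose, 4 of 10 tested PYR/PYL receptor genes rose and 4 fell in GNLox, where 28.7% and 26.1% of all tested genes did. In gnc gnl 0 rose and 4 fell, against 17.9% and 14.3%, and in Col-0 3 rose and 3 fell, a share near the 26.0% and 23.8% of all genes. PYL7 fell by 1.19 ± 0.15 on the log2 scale in GNLox, 0.93 ± 0.15 in gnc gnl and 1.02 ± 0.15 in Col-0 (edgeR adjusted p = 2.05e-05, 0.000616 and 0.000106). PYR1 rose by 0.70 ± 0.15 in GNLox and 0.70 ± 0.15 in Col-0 (adjusted p = 0.000999 and 0.00133), and PYL4 by 0.53 ± 0.09 and 0.45 ± 0.09 (adjusted p = 0.000151 and 0.000622). The other named receptors were PYL1 in GNLox (0.48), PYL5, PYL9 and PYL3 in gnc gnl (-0.61, -0.35 and -1.35), and PYL8 in Col-0 (-0.48). PYL9 in gnc gnl had the opposite sign, 0.033, with library totals.

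Of the 4 other tested phosphatases of the clade, 2 fell in GNLox, 1 in gnc gnl and 4 in Col-0, against 26.1%, 14.3% and 23.8% of all tested genes, and none rose. HAI2 fell by 0.99 ± 0.35 in gnc gnl and 1.45 ± 0.35 in Col-0 (edgeR adjusted p = 0.0422 and 0.00305). HAI3 had -1.18 in GNLox and -1.41 in Col-0, AHG3 had -0.76 in Col-0, and HAB2 had -0.29 in GNLox and -0.28 in Col-0, with the GNLox value at 0.19 under library totals. Of the 6 fits that each left out 1 library of the groups compared, 4 lost the call of HAI2 in gnc gnl and those of HAI3 and HAB2 in GNLox, 5 lost that of HAB2 in Col-0, 3 lost HAI3 and 2 lost AHG3 there, and none lost HAI2 in Col-0. Of the 10 SnRK2 kinases, 1 rose and 7 fell in GNLox, 2 rose and 4 fell in gnc gnl, and 2 rose and 7 fell in Col-0. In the same order, 28.7%, 17.9% and 26.0% of all tested genes rose, and 26.1%, 14.3% and 23.8% fell. Of the 3 kinases most strongly activated by abscisic acid, SNRK2.2 had -0.49 ± 0.08 in GNLox, -0.44 ± 0.08 in gnc gnl and -0.49 ± 0.08 in Col-0 (adjusted p = 0.000129, 0.00102 and 0.000179). SNRK2.3 had -0.82 ± 0.11, -0.71 ± 0.11 and -0.62 ± 0.11 (adjusted p = 3.59e-05, 0.000499 and 0.000473). SNRK2.6, the guard cell kinase OST1, had -0.82 ± 0.13 in GNLox, -0.29 ± 0.13 in gnc gnl and -0.56 ± 0.13 in Col-0 (adjusted p = 0.000141, 0.110 and 0.00282). With library totals the calls of these 3 kinases were lost wherever they had been made. Of 3 guard cell markers, 2 were called lower with sucrose in GNLox, 0 in gnc gnl and 1 in Col-0, and none was called higher. Their summed levels overlapped between the media in each genotype, and their part in the SNRK2.6 values was not tested. SNRK2.8 averaged 49.4 CPM with sucrose and 148 CPM without in GNLox, and 73.1 and 146 CPM in Col-0, and SNRK2.10 had -0.51 in Col-0. SNRK2.7 rose in all 3 genotypes, by 0.85 ± 0.22 in GNLox, 1.18 ± 0.22 in gnc gnl and 0.63 ± 0.22 in Col-0 (adjusted p = 0.00430, 0.00146 and 0.0275), and 4 of the 6 left-out fits lost the Col-0 call. SNRK2.5 rose by 0.91 ± 0.20 in gnc gnl and 0.80 ± 0.20 in Col-0 (adjusted p = 0.00357 and 0.00418), against 0.04 ± 0.20 in GNLox (0.882). The response of SNRK2.5 in GNLox was not called different from that of Col-0 (-0.76 ± 0.28, adjusted p = 0.203).

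Of 4 other tested group A bZIP genes, 2 fell in GNLox, 1 in gnc gnl and 3 in Col-0. The shares of all tested genes that fell were 26.1%, 14.3% and 23.8%. AREB3 had -0.40, -0.33 and -0.46 in GNLox, gnc gnl and Col-0, EEL had -0.47 in GNLox and -0.44 in Col-0, and ABF1 had -0.75 in Col-0. With library totals, AREB3 in both lines and EEL in GNLox had positive values, of 0.095, 0.057 and 0.043. The AFP proteins bind ABI5 and limit its action. Of 4, none rose and 3 fell in GNLox, 1 rose and 2 fell in gnc gnl, and in Col-0 none rose and 3 fell. Beside the shares that fell, given above, 28.7%, 17.9% and 26.0% of all tested genes rose. AFP4 fell by 0.90 ± 0.09 in GNLox, 0.63 ± 0.09 in gnc gnl and 0.70 ± 0.09 in Col-0 (edgeR adjusted p = 3.15e-06, 0.000237 and 3.69e-05). AFP3 had -0.89 in GNLox and -0.54 in Col-0, AFP1 had -0.44, -0.39 and -0.61 in GNLox, gnc gnl and Col-0, with the GNLox value at 0.062 under library totals, and AFP2 rose by 0.34 in gnc gnl. Of 3 tested embryo factor and VAL genes, VAL1, a repressor of the seed program, had -0.27 in GNLox, -0.31 in gnc gnl and -0.33 in Col-0, with 0.22 and 0.075 in GNLox and gnc gnl under library totals. FUS3, a seed maturation factor, had -2.95 ± 0.69 in Col-0, at 0.0759 against 0.629 CPM.

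**Figure D5:**
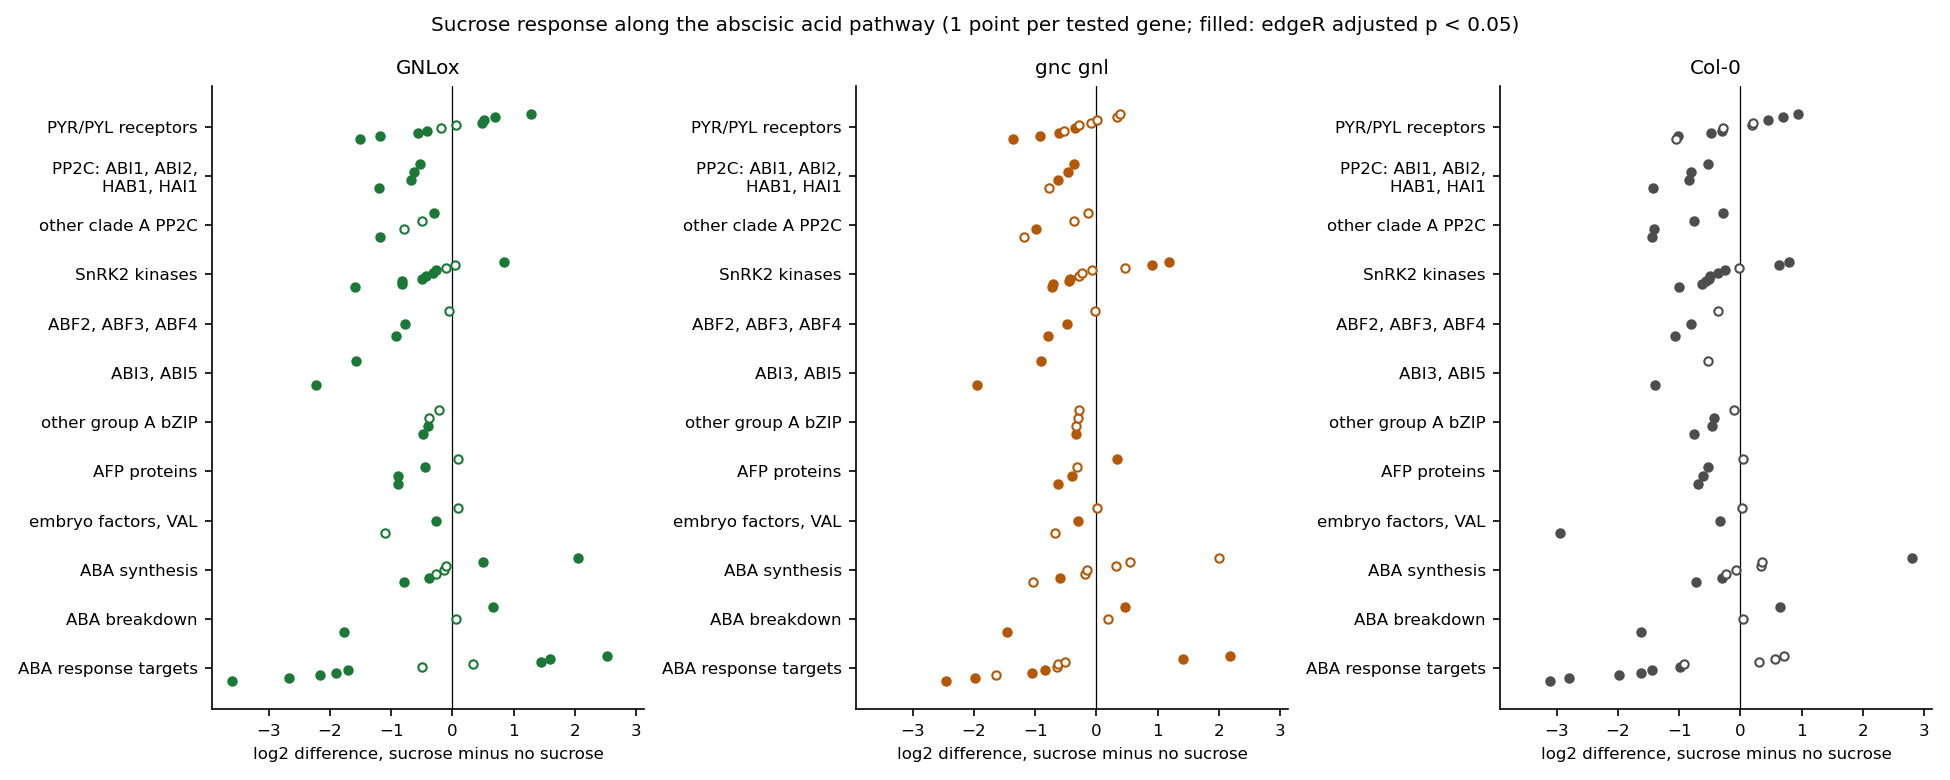
Log2 difference of each tested gene of the pathway with sucrose against without, 1 panel per genotype and 1 row per list, with filled points for an edgeR adjusted p under 0.05. The phosphatase and bZIP rows lie at or below 0 in all 3 panels while the receptor, synthesis and target rows spread to both sides. With library totals, the called genes named in the text that change sign are ABI1, PYL9, AREB3 and VAL1 in gnc gnl. In GNLox they are HAB2, AREB3, EEL, AFP1, ABA3 and VAL1. ABF2, which was not called, changes sign in both lines.

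Hormone synthesis and breakdown did not move one way. Of 7 tested synthesis genes, 2 rose and 2 fell in GNLox, 0 rose and 1 fell in gnc gnl, and 1 rose and 2 fell in Col-0. For so few genes these counts lay near the shares of all tested genes. Those shares were 28.7% higher and 26.1% lower in GNLox, 17.9% and 14.3% in gnc gnl, and 26.0% and 23.8% in Col-0. AAO3, the aldehyde oxidase of the last step, fell by 0.79 ± 0.09 in GNLox, 0.60 ± 0.09 in gnc gnl and 0.73 ± 0.09 in Col-0 (edgeR adjusted p = 8.37e-06, 0.000334 and 2.65e-05). NCED5, a cleavage enzyme at low level, had 2.04 ± 0.48 in GNLox and 2.81 ± 0.64 in Col-0, where it averaged 0.444 CPM with sucrose and 0.0587 CPM without. ABA3 had -0.38 in GNLox and -0.30 in Col-0, with 0.10 in GNLox under library totals, and ABA2 had 0.50 in GNLox. Of 3 tested breakdown hydroxylases, 1 rose and 1 fell in each genotype. CYP707A2 had -1.77 ± 0.42 in GNLox, -1.46 ± 0.43 in gnc gnl and -1.62 ± 0.41 in Col-0, while CYP707A3 had 0.66 in GNLox and 0.64 in Col-0 and CYP707A1 had 0.47 in gnc gnl.

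Of 10 tested response targets, 3 rose and 5 fell in GNLox, 2 rose and 4 fell in gnc gnl, and 0 rose and 6 fell in Col-0. The shares of all tested genes were 28.7% higher and 26.1% lower in GNLox, 17.9% and 14.3% in gnc gnl, and 26.0% and 23.8% in Col-0. RD29B, a target with ABREs, averaged 31.2 CPM with sucrose and 117 CPM without in GNLox, 17.9 and 98.8 CPM in gnc gnl, and 16.5 and 143 CPM in Col-0. Its log2 differences were -1.90 ± 0.39, -2.46 ± 0.40 and -3.11 ± 0.42 (edgeR adjusted p = 0.000914, 0.000591 and 4.57e-05). RAB18, a dehydrin, had -2.17 ± 0.42 in GNLox, -1.98 ± 0.42 in gnc gnl and -1.98 ± 0.41 in Col-0 (adjusted p = 0.000522, 0.00274 and 0.00123). HB12, a homeodomain factor, had -1.71, -0.83 and -1.44 in the same order, EM6 had -3.60 in GNLox, and RD29A had -1.62 in Col-0. The cold-associated gene KIN1 was higher with sucrose in both lines, at 2.52 ± 0.57 in GNLox and 2.19 ± 0.49 in gnc gnl (adjusted p = 0.00176 and 0.00414), against 0.57 ± 0.50 in Col-0 (0.355). Its responses were not called different from that of Col-0 (adjusted p = 0.234 for GNLox and 0.634 for gnc gnl). Its near-identical neighbour COR6.6, with which it may share reads, had 1.45 ± 0.44, 1.41 ± 0.40 and 0.71 ± 0.41 (adjusted p = 0.0112, 0.0154 and 0.160). RD22, a dehydration-induced gene, was the third target higher in GNLox, at 1.59 ± 0.47 (adjusted p = 0.0106). The COR6.6 call was lost in 1 of the 6 left-out fits in GNLox and 2 in gnc gnl. Each of the 6 root and root hair markers was higher with sucrose in each genotype, with sums of 37.4 to 76.8 CPM with sucrose and 0.104 to 3.10 CPM without, and the part of tissue makeup in the member differences was not tested.

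In the line comparisons, 20.4% of all tested genes were called in GNLox with sucrose and 13.5% without. In gnc gnl these shares were 0.160% and 1.29%. The calls of list genes are a description beside these shares, with the numbers tested per list as given above. Among list genes in the line comparisons, PYL4 was called in 3 of 4. It was lower in GNLox than in Col-0 with sucrose (-0.47 ± 0.09, edgeR adjusted p = 0.00228) and without (-0.55 ± 0.09, adjusted p = 0.00145). In gnc gnl without sucrose it was higher (0.40 ± 0.09, adjusted p = 0.0390), a call lost in 5 of 6 fits that each left out 1 library of these groups, with adjusted p up to 0.227. In GNLox, PYL5 had -0.57 with sucrose and -0.44 without, GBF4 had -0.54 and -0.42, and the synthesis gene ABA2 had -0.60 and -0.76. CYP707A1 had -0.54 with sucrose and -0.57 without, and SNRK2.1 had 0.24 in both media. With sucrose only, calls were made for RD29A (1.82), ABF1 (0.79), VAL2 (0.19), SNRK2.8 (-0.57) and SNRK2.6 (-0.45). Without sucrose only, they were made for SNRK2.5 (1.07), EM6 (2.83), HAI2 (-1.24) and RD22 (-1.81), and the difference between the media was called for none of these. Of the 11 and 10 calls in GNLox with and without sucrose, 5 and 3 were kept in all 6 fits that left out 1 library, among them those of PYL4 and ABA2 in both media, RD29A, GBF4 and PYL5 with sucrose and SNRK2.5 without. In the sucrose comparisons, 23 of 26 named calls were kept in such fits in GNLox, 15 of 21 in gnc gnl and 22 of 29 in Col-0. Those lost without at least 1 library were ABA2, HAB2 and HAI3 in GNLox, with adjusted p up to 0.156, and CYP707A1, CYP707A2, AFP2, HAI2, PYL3 and PYL9 in gnc gnl, up to 0.271. In Col-0 they were CYP707A3, ABA3, AHG3, HAI3, HAB2, EEL and PYL8, up to 0.167. With library totals, 13 of the 26 named sucrose calls were lost in GNLox, 14 of 21 in gnc gnl and 16 of 29 in Col-0, those of SNRK2.2, SNRK2.3, AFP4 and VAL1 in all 3 genotypes among them. Of the named calls against Col-0, 9 of 11 in GNLox with sucrose, 7 of 10 without and the single call in gnc gnl were lost under that scaling. These included PYL4 in both media and ABA2, GBF4 and PYL5 with sucrose in GNLox. ABA2, GBF4 and PYL5 with sucrose were also lost in a fit of the compared groups alone. RD29A with sucrose and ABA2 and SNRK2.5 without were kept in both.

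The share of a gene's reads in introns gives a second readout that the gene choice did not use. It was 0.533% to 1.13% for ABI1, 1.05% to 2.88% for HAI1 and 0.906% to 1.88% for ABF4 over the 18 libraries. The ratio of intron to exon reads could be tested with limma for 5 members, ABI1, HAI1, ABF2, ABF3 and ABF4. None was called in any of the 7 comparisons, with none at an unadjusted p under 0.05 and log2 differences of -0.42 to 0.44. The share of 6663 tested genes that was called was 6.05% for sucrose in GNLox, 0.120% in gnc gnl and 0.810% in Col-0. Against Col-0 it was 0.855% in GNLox with sucrose and 0.0300% without, and 0 in gnc gnl with sucrose and 0.0150% without.

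Across the 18 libraries the members varied together to different degrees, and these libraries share the medium and genotype contrasts above. Of the 36 pairs of tested members, 21 had a Pearson r of log2 CPM over 0.7, and the median was 0.770. ABI5 and ABF3 had r = 0.967, as did HAB1 and ABF4, and ABI2 and HAI1 had 0.916. ABF2 and ABI3 had the lowest, at -0.113. Over all nuclear genes, the 2 most like ABI5 were AT5G15270 (r = 0.979) and MAIL1 (0.976), and those most like ABF3 were AT5G15270 (0.977) and the homeobox gene KNAT3 (0.977). ABF4 was closest to AT3G52240 and TOL1 (both 0.981), HAB1 to SHL (0.978) and AT2G32090 (0.973), and ABI1 to DPL1 (0.968) and AT1G48970 (0.961). ABI2 was closest to TBP1 and AT1G53560 (both 0.963), and HAI1 to AT5G03210 (0.964) and AT1G55240 (0.959). ABI3 was closest to MYB101 (0.941) and AT2G21720 (0.929), and ABF2 to the autophagy gene ATG8D (0.927) and AT3G11150 (0.923).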

How the data were processed

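Counts of reads per gene were deposited by the authors in 1 table per library, with RPKM, TPM and fraction columns beside them (per the file headers). TPM and RPKM were scaled by the authors per library, TPM to an equal sum. Fractions of unique exon and of intron reads are also the authors', per the file headers. The build was TAIR 10, per the submitters' processing notes. Aligner, counting program and strand: not given in the sources used here. RNA was extracted with a NucleoSpin RNA kit, per the labels' protocols.

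Tests of total gene counts used edgeR 4.0.16 under R 4.3.3 (TMM, robust quasi-likelihood, 1 model of 6 group means, 18 libraries, 12 residual degrees of freedom, two-sided, Benjamini-Hochberg over 21903 genes, called under 0.05). RPKM was not used, and TPM served only for levels between genes. Intron to exon ratios were tested with limma 3.58.1 on genes with a mean of at least 10 intron and 10 exon reads, with 0.5 added. Both tests were checked only on simulated data with few changed genes, in equal numbers up and down. That setting does not cover changes as broad as those seen with sucrose. Alternatives were DESeq2 1.42.0, other scalings, filters and count columns, single libraries left out, a replicate block, library totals, and a fit without GNLox replicate 3 and gnc gnl replicate 1 without sucrose. The last 2 were chosen after seeing the data. The members and gene lists were chosen with earlier results of these data known. From each list, up to 4 called genes with the smallest adjusted p are named per comparison; KIN1, RD22, COR6.6, SNRK2.5, SNRK2.6 and SNRK2.7 are also given where that rule did not name them, chosen after their values were seen. Likeness is Pearson r over 18 libraries. Gene starts of the reference TAIR10.1 annotation equalled those of the files in 32520 of 32536 nuclear genes.

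Same-numbered replicates deviated together in GNLox against Col-0 without sucrose (correlations 0.409, 0.126 and 0.260). The highest correlation between unlike numbers was 0.176, above that of replicate 2. Whether the numbers pair the samples there is therefore not settled.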

Additional observations from a re-analysis of the deposited data

How the results depend on the processing

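The counts of members called lower with sucrose were 7 to 8 in GNLox, 4 to 7 in gnc gnl and 7 to 8 in Col-0 when single libraries were left out. With library totals they were 2, 1 and 6. That scaling moved the split of all calls to 9391 higher and 942 lower in GNLox (6276 and 5721 with TMM), 5527 and 142 in gnc gnl (3925 and 3138) and 4037 and 1136 in Col-0 (5687 and 5216). For lines against Col-0 with sucrose it gave 1763 and 550 in GNLox (2228 and 2236) and 13 and 2 in gnc gnl (12 and 23), with the median gene moved by 0.29 and 0.22. Without sucrose it gave 288 and 548 in GNLox (1429 and 1534) and 19 and 11 in gnc gnl (217 and 66). Among the called genes named above, signs were reversed under it in gnc gnl for ABI1 (0.018), VAL1 (0.075), AREB3 (0.057) and PYL9 (0.033). In GNLox they were reversed for ABA3 (0.10), AFP1 (0.062), VAL1 (0.22), HAB2 (0.19), AREB3 (0.095) and EEL (0.043). ABF2, which was not called, also changed sign, to 0.42 in GNLox and 0.35 in gnc gnl.

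In GNLox against Col-0 without sucrose, 1 member was called, with 2 under DESeq2 or nuclear genes alone, 0 in a fit of the compared groups alone, under library totals, or without 2 libraries together, and 0 to 2 with single libraries left out. With sucrose it was 0, with 1 under library totals, and 0 to 1 with single libraries left out. In gnc gnl against Col-0 without sucrose it was 0, with 1 under DESeq2, and 0 to 1 with single libraries left out. The replicate block gave 1 member, ABI5 (0.53, edgeR adjusted p = 0.0487), in GNLox with sucrose and changed no other member call. The cause of these changes was not tested. Besides GNLox against Col-0 without sucrose, same-numbered replicates did not all deviate together in the other 6 comparisons, so pairing by number was not shown there either.

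Depth limits ABI3 and ABI4, and for the rest 3 libraries a group limit precision. The library kit, strand and culture of each replicate are unknown.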
